A study of Mus musculus with 16 samples.

Results

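The genes described here are 10 members of the AP-1 and BATF family of transcription factors, namely *Fos*, *Fosb*, *Fosl1*, *Fosl2*, *Jun*, *Junb*, *Jund*, *Batf*, *Batf3* and *Atf3*. They were taken by symbol from an annotation of the mouse genome that holds 55413 genes on chromosomes 1 to 19, X and Y. A region of open chromatin was called a promoter region of a member when it overlapped a window that reached 1000 bp upstream and 100 bp downstream of any of its transcription start sites. Failing that, it was called an other region when it lay in the gene body or within 10 kb of it. Of 16512 combined regions, 9 were promoter regions of a member, of 10324 promoter regions in all, and 14 were other regions of a member. *Fosl1* and *Batf3* had no promoter region in any library.

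All AP-1 and BATF proteins bind DNA through a basic leucine zipper and do so in pairs. The FOS proteins (*Fos*, *Fosb*, *Fosl1*, *Fosl2*) need a partner, usually a JUN protein (*Jun*, *Junb*, *Jund*), whereas JUN proteins can also pair with each other. BATF and BATF3 lack an activation domain of their own, pair with JUN proteins and bind next to IRF4 or IRF8, and BATF is needed for class switching in B cells. ATF3 is a stress-induced relative. *Fos*, *Fosb*, *Jun*, *Junb* and *Atf3* are immediate early genes, which are switched on within minutes of a stimulus, and *Jund* is expressed in most cells without one.

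ATAC-seq, in which the Tn5 transposase cuts and tags accessible DNA, was performed on splenic B cells of C57BL/6 mice that carry CD23-Cre, a transgene that expresses Cre in mature B cells. The comparison was between 4 libraries of Brg1 fl/+ cells, in which Cre deletes 1 of the 2 alleles of *Smarca4*, and 4 libraries of Brg1 fl/fl cells, in which both are deleted. *Smarca4* encodes Brg1, the ATPase of the BAF chromatin remodeling complex. LPS (10 μg/mL) and IL-4 (20 ng/mL) had been added to all cultures for 72 hours by the sample labels and 96 hours by the text of the series, and 50000 cells went into a library. Both groups carry the Cre transgene and at least 1 deleted allele, so neither is a wild type control. The number of mice behind the libraries is not stated, and positions of peaks give no check of the deletion itself. Where libraries share a mouse, the p-values below measure a spread that is in part technical.

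Peaks were called with MACS2 by the authors in each library by itself, which gave 6271 to 14614 peaks per list, and the values of a peak give the fragments at its summit (its height) and the background expected there. The median height over regions shared by the 8 lists ranged from 22 to 78 fragments. Relative to the background of the library it was 53.4 ± 9.23 (SD, n = 4) for Brg1 fl/+ but 28.8 ± 1.10 (SD, n = 4) for Brg1 fl/fl, without overlap (two-sided exact permutation test, p = 0.0286, the smallest possible with 4 against 4). Peaks thus stood less far above background in every Brg1 fl/fl library, and absence from a list means only that a region was too faint to be called there. Heights of 2 pairs of Brg1 fl/+ libraries (1 with 2, 3 with 4) differed by less than counting noise, with a dispersion of 0.884 and 0.769 where noise alone gives 1, as did libraries 2 and 3 at 0.939, while the other 3 Brg1 fl/+ pairs exceeded 1 and reached 1.23 and the 6 pairs of Brg1 fl/fl libraries gave 0.812 to 0.886. Each library was kept as 1 replicate, as labelled, and results with those Brg1 fl/+ pairs averaged are given where a call changes. Of marker genes, 5 of 8 for B cells had a promoter region (*Ms4a1*, *Pax5*, *Ebf1*, *Fcer2a* and *Cd79a*, while *Cd79b* and *Cd22* had none), 1 of 7 for T cells (*Lck*, in 1 library) and 0 of 7 for myeloid cells.

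The sequences that the regions of the family turn on are printed first, 5′ to 3′ on the strand of the gene, from RefSeq's GRCm38 assembly. They are shown because they hold the motifs by which this family is known to be regulated. Capitals mark matches, on either strand, to a CArG box (the binding site of serum response factor), an NF-kB site, the AP-1 site TGANTCA, the cyclic AMP response element TGACGTCA or TGACATCA, the AP-1-like site of the *Jun* promoter, which was added to the motifs after the data were seen. No matches to different motifs overlap in these runs. A match is a description of the letters and not a bound site.

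The *Batf* promoter (chr12:85686412-85686668, + strand, the 257 bases before the coding transcript) is the only one listed in every Brg1 fl/+ library and in no Brg1 fl/fl library, and it holds an NF-kB site.
Batf promoter: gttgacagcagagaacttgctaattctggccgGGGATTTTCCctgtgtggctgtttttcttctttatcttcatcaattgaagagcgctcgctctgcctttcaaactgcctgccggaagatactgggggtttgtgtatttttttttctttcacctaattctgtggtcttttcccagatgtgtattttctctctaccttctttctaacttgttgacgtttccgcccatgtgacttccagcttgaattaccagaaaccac
The *Fos* promoter (chr12:85473540-85473839, + strand) and the *Fosb* promoter (chr7:19310052-19310351, − strand) each hold a CArG box, the core of the serum response element, and an NF-kB site.
Fos promoter: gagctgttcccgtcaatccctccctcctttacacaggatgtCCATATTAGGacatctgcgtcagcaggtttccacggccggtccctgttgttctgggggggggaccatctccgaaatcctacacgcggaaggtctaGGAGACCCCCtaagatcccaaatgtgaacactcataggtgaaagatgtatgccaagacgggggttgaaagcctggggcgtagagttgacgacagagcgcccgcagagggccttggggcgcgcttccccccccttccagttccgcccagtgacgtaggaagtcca
Fosb promoter: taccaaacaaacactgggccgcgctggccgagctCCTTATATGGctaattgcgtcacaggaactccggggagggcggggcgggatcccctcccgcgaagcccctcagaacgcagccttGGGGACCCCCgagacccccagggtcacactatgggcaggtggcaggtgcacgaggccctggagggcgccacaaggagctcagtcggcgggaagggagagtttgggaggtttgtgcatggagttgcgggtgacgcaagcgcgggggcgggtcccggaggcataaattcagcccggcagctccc
A CArG box also lies near the summits of a region 8875 bp past the end of *Fos* (chr12:85486048-85486247, + strand) and of a region at the start of the non-coding *Junb* transcript, past the end of the coding one (chr8:84976560-84976759, − strand).
Fos downstream region: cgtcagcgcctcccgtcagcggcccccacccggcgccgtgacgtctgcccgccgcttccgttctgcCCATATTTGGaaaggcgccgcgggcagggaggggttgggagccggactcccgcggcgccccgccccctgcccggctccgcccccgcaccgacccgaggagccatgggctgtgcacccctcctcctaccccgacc
Junb downstream region: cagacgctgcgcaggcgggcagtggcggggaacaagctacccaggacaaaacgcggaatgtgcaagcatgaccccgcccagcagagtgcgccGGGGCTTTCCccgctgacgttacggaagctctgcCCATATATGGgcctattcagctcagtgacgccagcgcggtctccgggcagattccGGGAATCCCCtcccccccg
The *Jun* promoter (chr4:95052223-95052422, − strand) and the *Jund* promoter (chr8:70698699-70698948, + strand) hold sites of the kind that JUN, ATF and CREB proteins bind.
Jun promoter: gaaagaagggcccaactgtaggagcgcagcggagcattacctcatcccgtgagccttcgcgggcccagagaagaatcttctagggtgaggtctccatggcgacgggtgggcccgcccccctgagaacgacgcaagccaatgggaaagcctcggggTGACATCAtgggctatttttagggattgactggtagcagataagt
Jund promoter: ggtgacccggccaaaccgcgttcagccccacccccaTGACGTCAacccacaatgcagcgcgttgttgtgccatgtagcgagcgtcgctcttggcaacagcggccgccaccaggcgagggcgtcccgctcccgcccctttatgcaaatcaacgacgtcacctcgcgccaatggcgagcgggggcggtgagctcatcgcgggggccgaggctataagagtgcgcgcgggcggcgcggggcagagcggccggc
Among the other regions, a TGAGTCA lies 14 bp from the summit of a region 6421 bp upstream of the distal start of *Atf3* (chr1:191224361-191224560, − strand).
Atf3 upstream region: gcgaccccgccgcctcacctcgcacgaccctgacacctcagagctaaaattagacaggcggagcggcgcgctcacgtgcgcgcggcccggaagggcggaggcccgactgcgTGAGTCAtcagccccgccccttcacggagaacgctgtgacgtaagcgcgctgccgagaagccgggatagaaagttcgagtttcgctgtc

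Within 100 bp of the summit, a CArG box was present in 3 of the 9 promoter regions of the family (*Fos*, *Fosb* and the downstream *Junb* start), against 0.678% of all 10324 promoter regions. An NF-kB site was present in 2 of 9 (*Fos* and the downstream *Junb* start, which holds 2 within this distance), against 4.18% of all. TGACATCA was present in 1 of 9, at the *Jun* promoter 41 bp upstream of the start, against 0.881%. TGANTCA, TGACGTCA and a STAT6 type site (TTC, any 4 bases, GAA) were present in none of the 9, against 2.43%, 3.497% and 2.47% of all. The NF-kB site of *Fosb* lies 111 bp from its summit, the TGACGTCA of *Jund* 113 bp and the NF-kB site of *Batf* 122 bp, just outside this window. The window at the *Batf* summit had a GC content of 41.8% and 2.49 CpG per 100 bp, the lowest of the 9, where the medians of all promoter regions were 66.7% and 9.45. Within 100 bp of the summit, 1 of the 14 other regions held TGANTCA, 1 a CArG box, 2 a STAT6 type site and 0 an NF-kB site. Over the 6188 regions at no promoter of any gene, the shares were 8.86%, 0.889%, 4.36% and 10.3%. These sets are unlike, since 4 of the 14 lie at promoters of neighboring genes.

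Promoter regions of the family differed widely in height. Heights were divided by the median of the library and multiplied by a common 39.5 fragments (scaled height), so that they can be set side by side. In Brg1 fl/+ the *Jund* promoter was highest at 114 ± 16.5 fragments (SD, n = 4), followed by *Jun* at 66.6 ± 4.0 and the downstream *Junb* start at 61.9 ± 7.3, which did not differ from each other beyond their spread. The coding start of *Junb*, listed in 2 of these libraries, was at 35.3 and *Fosb* at 34.8 ± 3.3. *Fos* at 22.4 ± 4.0, *Atf3* at 21.5 ± 3.3 and *Fosl2* at 20.6 ± 2.5 did not differ beyond their spread. The *Batf* promoter was lowest, at 15.6 ± 7.6, and had the largest SD of the 9 relative to its mean. The plot of scaled heights by promoter shows *Jund*, *Jun*, the downstream *Junb* start and *Fosb* in the same order in both genotypes, and no listed Brg1 fl/fl peak at *Batf*.

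**Figure D1:**
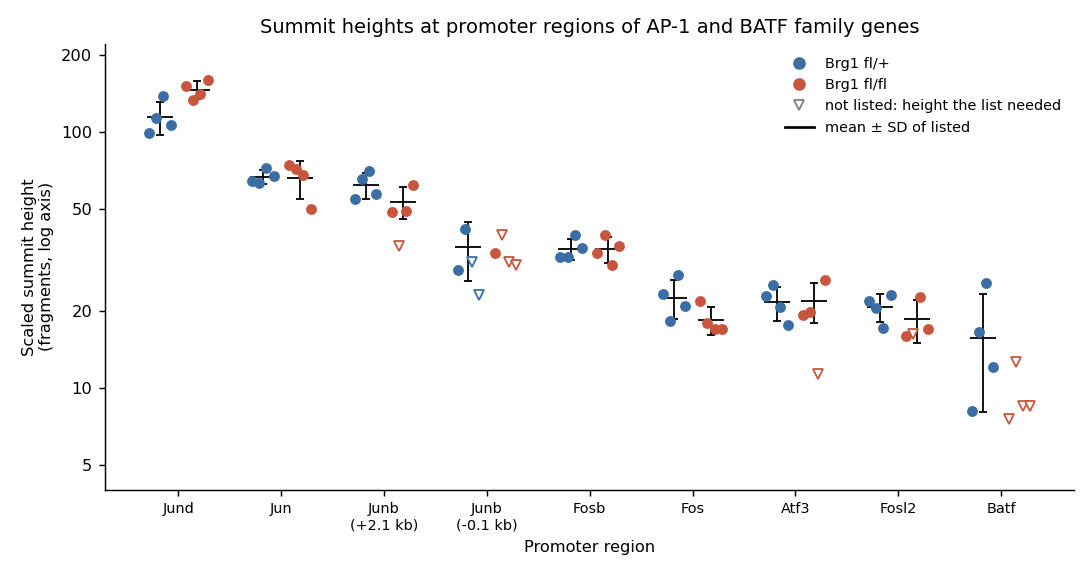
Scaled summit height (fragments, log axis) of the 9 promoter regions of AP-1 and BATF family genes, where filled points are Brg1 fl/+ (blue) and Brg1 fl/fl (red) libraries that list the region, bars are mean ± SD of these, and open triangles are the scaled height that a library which does not list the region would have needed. Triangles assume a local background at the same multiple of that of the library as the median of the Brg1 fl/+ libraries that list the region. *Jund* lies between 99.2 and 160 in all 8 libraries, and *Batf* has 4 blue points and 4 red triangles.

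The comparison of Brg1 fl/fl with Brg1 fl/+ addresses how the loss of the second allele changes accessible regions in activated B cells. It was made over the 4560 regions listed and solved in all 8 libraries, on log2 height centred in each library on its median, with limma and Benjamini-Hochberg adjustment over all 4560. Of these regions, 423 (9.28%) were higher and 162 (3.55%) lower in Brg1 fl/fl at an adjusted p under 0.05, and the median log2 difference was 0.06. Most were promoter regions, of which 4236 were tested, with 290 higher and 150 lower. A region missing from any list was not tested and could not be called lower, so this balance covers shared regions alone. The paper, which compared coverage, reported more peaks with reduced than with increased accessibility in Brg1-deficient cells. Of the 4 promoter regions of the family tested, 1 was called higher (*Jund*) and 0 lower, and of the 4 other regions 0 were called in either direction. These counts are too small to be read as a share that differs from the background. At an unadjusted p under 0.05 limma gave 2 of the 8, *Jund* and the region upstream of *Atf3*, against 1232 (27%) of all 4560, so this share is that of the background.

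*Jund* encodes the JUN protein that is present in most cells at rest. Its promoter region (chr8:70698384-70699243) ranked within the top 4.7% of every list, with 196, 143, 80 and 97 fragments at the summit in Brg1 fl/+ and 179, 74, 149 and 170 in Brg1 fl/fl. Scaled, these were 99.2, 113, 137 and 106 against 150, 133, 140 and 160. The highest Brg1 fl/+ library lay within the range of the Brg1 fl/fl libraries, so the genotypes overlapped. The log2 difference was 0.36 ± 0.11 (SE, 95% interval 0.14 to 0.59), or 1.29-fold higher in Brg1 fl/fl (limma, adjusted p = 0.0258), while an exact permutation test of this region alone gave p = 0.0571. Averaging the Brg1 fl/+ pairs gave the same difference with an adjusted p of 0.0663 by limma. Leaving out any of 5 libraries, namely Brg1 fl/+ replicate 1, 2 or 4 or Brg1 fl/fl replicate 1 or 4, also ended the call, with adjusted p-values from limma between 0.0604 and 0.0988. The local background at *Jund* was 11.2 to 16.4 times that of the library in Brg1 fl/+ and 8.65 to 9.45 times in Brg1 fl/fl, and its part in the result was not tested. On the deposited fold, which is relative to this background, the log2 difference was 0.29 (limma, adjusted p = 0.190).

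The scaling sets the direction of these values. Divided by the background of the library instead of centred, the median over all regions shifted to -0.81 and all 8 tested regions of the family were lower in Brg1 fl/fl, *Jund* included at -0.51 (limma, adjusted p = 0.000383). Under that scaling 4151 of all 4560 regions (91%) were called lower and 16 higher, so the count of the family is that of the background. *Jund* lay 0.30 above the median of all regions, a distance that this scaling leaves as it was by construction. Under quantile normalization its difference was 0.04 (limma, adjusted p = 0.834).

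**Figure D2:**
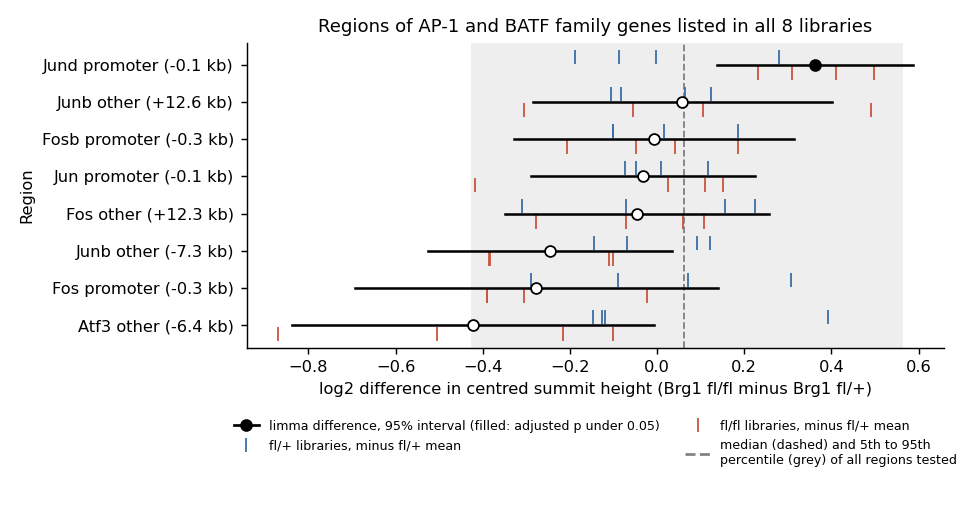
Log2 difference in centred summit height (Brg1 fl/fl minus Brg1 fl/+) of the 8 regions of the family listed in all libraries, with its 95% interval, the single libraries as ticks (blue Brg1 fl/+, red Brg1 fl/fl, each minus the Brg1 fl/+ mean), and the median and 5th to 95th percentile of all 4560 regions in grey. Only *Jund*, at 0.36, is filled as called, and its red ticks overlap the highest blue tick.

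*Jun* encodes the JUN protein that gave AP-1 its name. Its promoter region (chr4:95051938-95053364), which also covers the start of the divergent non-coding gene *Junos*, had 127, 80, 42 and 61 fragments in Brg1 fl/+ and 88, 40, 72 and 53 in Brg1 fl/fl. Scaled, the genotypes were at 66.6 ± 4.0 and 65.8 ± 10.96 fragments (SD, n = 4), and Brg1 fl/fl replicate 4 was the lowest of the 8 libraries at 49.8. The log2 difference was -0.03, with a 95% interval of -0.29 to 0.23 (limma, adjusted p = 0.895).

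*Fos* and *Fosb* encode FOS proteins that serum response factor switches on through the CArG box. The *Fos* promoter region (chr12:85473333-85474228) had 46, 23, 16 and 19 fragments in Brg1 fl/+ and 26, 10, 18 and 18 in Brg1 fl/fl. Scaled, it was at 22.4 ± 4.0 in Brg1 fl/+ against 18.4 ± 2.3 in Brg1 fl/fl, with overlapping libraries and a log2 difference of -0.28 (95% interval -0.69 to 0.14, limma, adjusted p = 0.407, exact permutation test, p = 0.114). The region downstream of *Fos* (chr12:85485870-85486417), an intergenic region whose summit lies 12258 bp from the start of the coding transcript, had 69, 64, 24 and 44 fragments in Brg1 fl/+ and 49, 26, 48 and 38 in Brg1 fl/fl. This region was higher than the *Fos* promoter in all 8 libraries. Its log2 difference was -0.05 (95% interval -0.35 to 0.26, limma, adjusted p = 0.877).

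The *Fosb* promoter region (chr7:19310034-19310607) had 64, 41, 23 and 32 fragments in Brg1 fl/+ and 40, 22, 32 and 38 in Brg1 fl/fl, which scaled to 34.8 ± 3.3 and 34.7 ± 3.9 (SD, n = 4). The log2 difference was -0.01 (95% interval -0.33 to 0.31, limma, adjusted p = 0.984), the smallest of the 8. Of 3 other *Fosb* regions, the one 1688 bp past its end (chr7:19300796-19301277), at the start of the non-coding gene *Gm26802*, had 24, 12 and 11 fragments in Brg1 fl/+ libraries 1, 2 and 4, none listed in library 3, and 25, 14, 18 and 16 in Brg1 fl/fl. The listed Brg1 fl/fl libraries scaled to 19.5 ± 4.5 and the 3 Brg1 fl/+ libraries that list it to 11.2 ± 1.5. No other region of the family was on more lists of Brg1 fl/fl than of Brg1 fl/+. Where regions listed in at least 3 libraries of each genotype were tested, with the missing library dropped, this region was 0.78 higher on the log2 scale (limma, adjusted p = 0.0309). That fit called 8.25% of all its regions higher. Among regions listed in the 7 libraries other than Brg1 fl/+ replicate 3, the library that does not list it, the region was 0.75 higher (limma, adjusted p = 0.0330). There 406 of all 5046 regions were called higher. A region in an exon of *Fosb* (chr7:19308257-19308843) had 65, 39, 20 and 22 fragments in Brg1 fl/+ and 39, 37 and 44 in Brg1 fl/fl libraries 1, 3 and 4. The third, about 10 kb upstream (chr7:19319634-19320348), was listed in Brg1 fl/+ libraries 1 and 2 and Brg1 fl/fl library 4 with 20 to 32 fragments.

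*Fosl2* encodes Fra-2 and *Fosl1* Fra-1, FOS proteins without the strong activation domain of FOS. The *Fosl2* promoter region (chr5:32135054-32136027) had 43, 26, 10 and 21 fragments in Brg1 fl/+ and 19, 24 and 18 in Brg1 fl/fl libraries 1, 3 and 4. Brg1 fl/fl library 2, which did not list it, would have shown 11.4 fragments at the mean Brg1 fl/+ level and needed 9 at the local background. Here and below, this level is the geometric mean over the Brg1 fl/+ libraries that list the region. The local background is taken as that of the library times the median multiple in those Brg1 fl/+ libraries. Where both genotypes list a region, the multiple was often lower in Brg1 fl/fl, such as 3.63 to 3.86 at *Jun* against 4.75 to 8.64. The heights needed in Brg1 fl/fl may therefore be overstated. *Fosl1* had no promoter region, and its only region (chr19:5457327-5457648, at the start of the neighbor *Ccdc85b*) was listed in Brg1 fl/+ library 1 alone, with 16 fragments.

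*Junb* encodes a JUN protein induced early on stimulation. Along this gene the lists held 5 regions. At the start of the coding transcript (chr8:84978561-84978905) the summit had 57 and 53 fragments in Brg1 fl/+ libraries 1 and 2 and 40 in Brg1 fl/fl library 1, and the other 5 lists did not hold it. Its local background was a median of 11.04 times that of the library in Brg1 fl/+ libraries 1 and 2, but 5.38 times in Brg1 fl/fl library 1. If the Brg1 fl/+ multiple held in the 5 lists without it, 3 needed between 86.6% and 89.3% of the mean Brg1 fl/+ level. Of the remaining lists, 1 needed 66.3% and Brg1 fl/fl library 2 needed 114%. With a lower background, as in Brg1 fl/fl library 1, they would have needed less. The region at the non-coding start (chr8:84976357-84976760) had 108, 83, 41 and 52 fragments in Brg1 fl/+ and 58, 52 and 66 in Brg1 fl/fl libraries 1, 3 and 4. Brg1 fl/fl library 2 did not list it, although the mean Brg1 fl/+ level would have given 34.3 fragments there and its list needed 20. A region 1294 bp upstream of the coding start (chr8:84979851-84980418) had 81, 49, 19 and 35 fragments in Brg1 fl/+ and 47, 27 and 35 in Brg1 fl/fl libraries 1, 3 and 4, and it too was absent from library 2. That library thus listed none of the 3 central *Junb* regions, whereas it listed both outer ones with 26 fragments each.

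The outer *Junb* regions were listed in all libraries. The one 7265 bp upstream (chr8:84985569-84986278), which holds 3 TGACTCA sites between 229 and 323 bp from its summit, had 90, 68, 28 and 50 fragments in Brg1 fl/+ and 46, 26, 50 and 41 in Brg1 fl/fl. Its log2 difference was -0.25 (95% interval -0.53 to 0.04, limma, adjusted p = 0.258, exact permutation test, p = 0.114). The one at the start of the neighbor *Rnaseh2a* (chr8:84965875-84966344) had 62, 44, 18 and 33 fragments in Brg1 fl/+ and 32, 26, 38 and 34 in Brg1 fl/fl, with a log2 difference of 0.06 (95% interval -0.28 to 0.40, limma, adjusted p = 0.862). The plot of peaks along *Batf*, *Fos* and *Junb* sets these lists side by side, with the 3 gaps of Brg1 fl/fl library 2 in the middle of *Junb* and 4 empty Brg1 fl/fl rows at *Batf*.

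**Figure D3:**
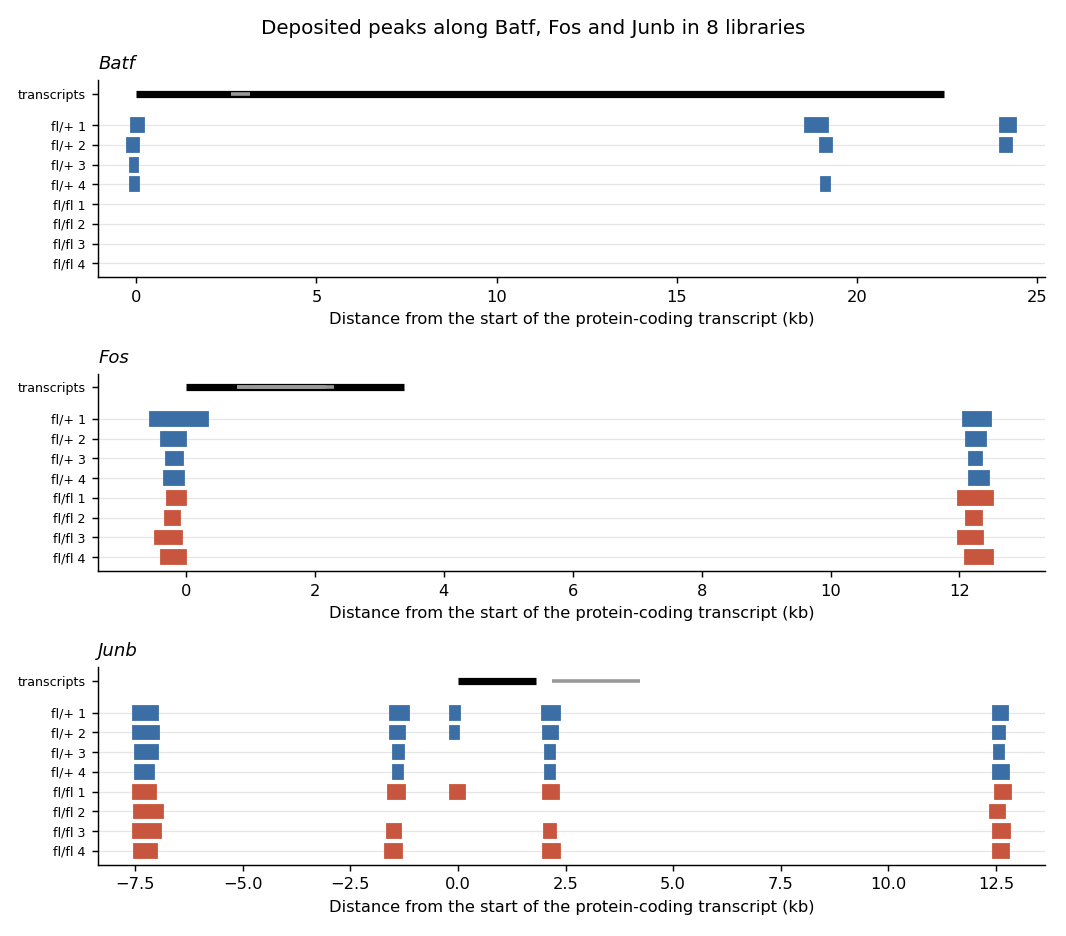
Deposited peaks (the highest of each region) along *Batf*, *Fos* and *Junb* by distance from the start of the protein-coding transcript (kb), 1 row per library (blue Brg1 fl/+, red Brg1 fl/fl), with coding (black) and other (grey) transcripts above. *Batf* has peaks in Brg1 fl/+ rows alone, *Fos* has 2 regions in all 8 rows, and Brg1 fl/fl library 2 lacks the 3 central *Junb* regions.

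*Batf*, the member that B cells need for class switching, was the only gene of the family whose promoter region was listed in all 4 Brg1 fl/+ libraries and in none of the Brg1 fl/fl libraries. Over all promoter regions, 17 of 10324 (0.165%) had this pattern. The region (chr12:85686412-85686881) had 16, 21, 15 and 11 fragments in Brg1 fl/+ libraries 1 to 4. The deposited folds over local background, with a pseudocount in both terms, were 6.31, 8.80, 9.49 and 6.73. The peaks ranked low, at 55.7% to 83.5% of their lists by q. Relative to their mean they varied more than the other promoter regions of the family, with scaled heights of 8.10, 16.6, 25.7 and 12.1. The mean Brg1 fl/+ level used here is the geometric mean, which is lower than the mean scaled height of 15.6 given above. At this level the Brg1 fl/fl libraries would have shown 17.0, 7.96, 15.2 and 15.2 fragments. Their lists needed 9, 7, 9 and 9, or 52.9%, 87.9%, 59.2% and 59.2% of that level. In Brg1 fl/fl libraries 1, 3 and 4 the summit was therefore below about 59% of the mean Brg1 fl/+ level if the local background was alike, and in library 2 the depth hardly allowed a call. The lowest Brg1 fl/+ library, at 8.10, would itself have missed the scaled height needed in Brg1 fl/fl libraries 2, 3 and 4, which was 12.6, 8.46 and 8.46. When every list was shortened to its 6250 strongest peaks, only 1 Brg1 fl/+ library listed the region, and with a −log10 q of at least 10 only 2 did, against 0 Brg1 fl/fl libraries in both cases. No test was made of this pattern, and the lower height of peaks over background in Brg1 fl/fl moves with it, whose part in it was not tested.

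The other 2 *Batf* regions showed the same direction, at heights close to what the Brg1 fl/fl lists needed if the local background was alike. A region in an intron (chr12:85705218-85705991) had 29, 17 and 13 fragments in Brg1 fl/+ libraries 1, 2 and 4, and a region 1659 bp past the gene (chr12:85710641-85711092) had 23 and 15 in libraries 1 and 2. Neither was listed in any Brg1 fl/fl library. If the local background was alike, those lists needed 78.7% to 122% of the mean level of the Brg1 fl/+ libraries that list them. *Batf3*, the relative of *Batf* known from dendritic cells, had no promoter region and 1 peak 2617 bp past the gene (chr1:191111366-191111656), with 9 fragments in Brg1 fl/+ library 2.

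*Atf3* encodes a stress-induced protein that represses or activates with its partners. Its promoter region (chr1:191182662-191183707) had 45, 32, 12 and 16 fragments in Brg1 fl/+ and 23, 11 and 28 in Brg1 fl/fl libraries 1, 2 and 4. Scaled, the listed libraries were at 21.5 ± 3.3 and 21.8 ± 3.9. Brg1 fl/fl library 3 did not list it, although it needed 12 fragments where the mean Brg1 fl/+ level gives 22.7. The region upstream of the distal start (chr1:191224153-191225055), which also lies at the start of the non-coding gene *D730003I15Rik*, had 68, 30, 14 and 22 fragments in Brg1 fl/+ and 22, 8, 24 and 26 in Brg1 fl/fl. Its log2 difference was -0.42 (95% interval -0.84 to -0.01), which did not pass the threshold after adjustment (limma, adjusted p = 0.175, exact permutation test, p = 0.114). The genotypes overlapped, since Brg1 fl/fl replicate 4 at 24.4 scaled fragments lay above 3 of the 4 Brg1 fl/+ libraries. Both intronic regions were listed in Brg1 fl/+ alone, with 14 and 9 fragments in libraries 1 and 2 (chr1:191193744-191194294) and 18 in library 1 (chr1:191197936-191198138). Each holds a STAT6 type site, 46 and 17 bp from its summit. Such a site lay within 100 bp of the summit in 4.36% of the 6188 regions at no promoter of any gene.

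Over the family, 5 of 9 promoter regions (55.6%) were on fewer lists of Brg1 fl/fl than of Brg1 fl/+, 4 on as many and 0 on more, where 37.4% of all promoter regions were listed in fewer. Of the 14 other regions, 9 (64.3%) were listed in fewer, and 4 of the 14 lie at promoters of neighboring genes. Of those 4, only the region at *Ccdc85b* was listed in fewer. The share was 63.4% over the 6188 regions at no promoter of any gene. That set leaves out regions such as these 4, so the shares are of unlike sets and cannot be compared directly. Per library, 9, 9, 8 and 8 of the 9 promoter regions were listed in Brg1 fl/+ and 8, 5, 6 and 7 in Brg1 fl/fl (8.5 ± 0.58 against 6.5 ± 1.29, SD, n = 4). Of all promoter regions, the lists held 73.9% ± 20.2 in Brg1 fl/+ against 64.2% ± 9.21 in Brg1 fl/fl (SD, n = 4), so the mean was lower there as well. Brg1 fl/+ library 3 and Brg1 fl/fl library 2 have lists of similar length, at 6372 and 6271 peaks, and held 8 and 5 of the 9. Their median heights over background were 42.5 and 28.1, and the part of this in the counts was not tested. Of the 14 other regions, 13, 12, 6 and 8 were listed in Brg1 fl/+ and 7, 5, 7 and 8 in Brg1 fl/fl, a mean difference of -3 that became 0.25 when every list was shortened to an equal length. The plot of all 23 regions by library shows that the grey cells of Brg1 fl/fl fall on all *Batf* regions, on regions that few Brg1 fl/+ libraries list, and on single libraries at *Fosb*, *Fosl2*, *Junb* and *Atf3*.

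**Figure D4:**
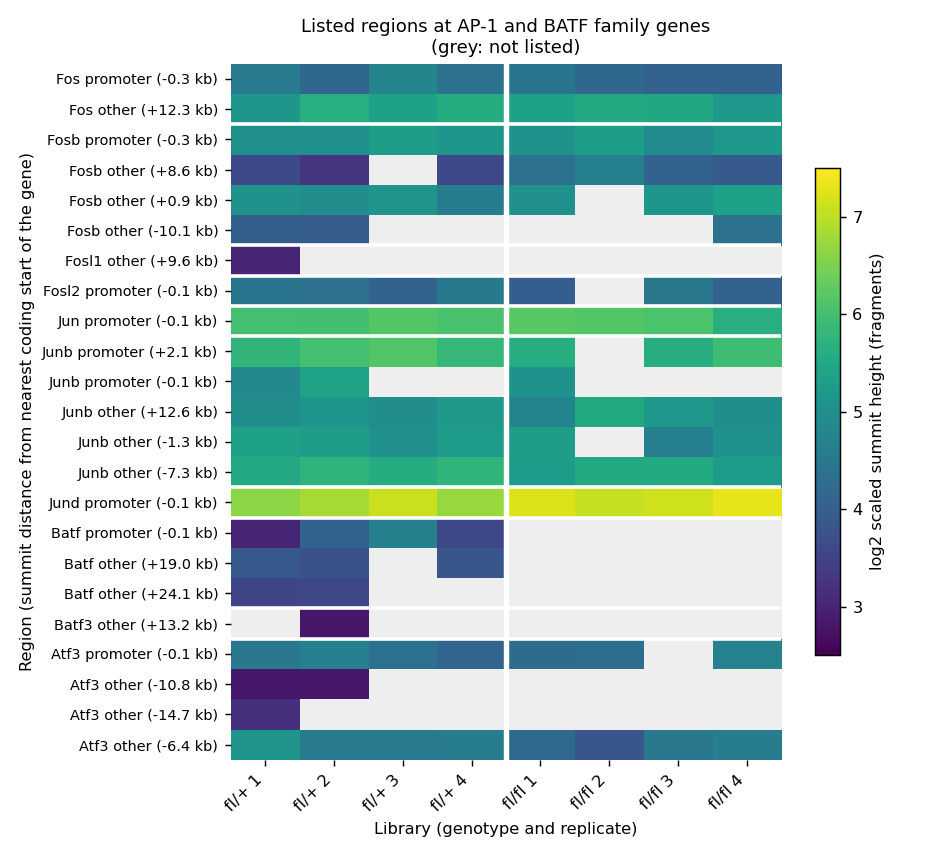
Log2 scaled summit height (color, fragments) of the 23 regions of AP-1 and BATF family genes (rows, with the distance of the summit from the nearest coding start) in 8 libraries (columns), where grey cells are not listed. The *Jund* row is brightest in every library, and the 3 *Batf* rows are grey in all 4 Brg1 fl/fl libraries.

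Relatives and partners of the family were set beside it as a list of 22 genes, of which 21 had a promoter region. Of their 23 promoter regions 14 were tested, and 1 was lower and 1 higher in Brg1 fl/fl, with a median log2 difference of 0.03 against 0.06 over all regions. *Atf5*, a stress-responsive ATF, rose from 55.4 to 90.1 scaled fragments (log2 difference 0.70 ± 0.12, SE, limma, adjusted p = 6.12e-05). *Irf8*, which binds DNA together with BATF or PU.1, fell from 33.4 to 22.9 (-0.56 ± 0.18, SE, limma, adjusted p = 0.0344). The *Irf8* call was lost when the Brg1 fl/+ pairs were averaged (limma, adjusted p = 0.132) and without Brg1 fl/+ replicate 1, 2 or 4 or Brg1 fl/fl replicate 3 or 4 (limma, adjusted p between 0.0629 and 0.144). It was also lost with libraries of both genotypes averaged in pairs (2 against 2, limma, adjusted p = 0.0661), while *Atf5* kept its call (limma, adjusted p = 0.000143). *Irf4*, the other partner of BATF, was listed in 2 libraries of each genotype and was not tested. A promoter region of *Nfe2l1*, chosen for mention after its values were seen, was listed in all 4 Brg1 fl/+ libraries at a mean of 26.4 scaled fragments and in no Brg1 fl/fl library, while another promoter of that gene was listed in all 8.

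The kinases and regulators upstream of AP-1 formed a list of 24 genes, such as the MAP kinases, the DUSP phosphatases, the ETS factors that act with serum response factor, and *Srf* itself. All 24 had a promoter region, and of 25 regions 14 were tested with 0 called in either direction (limma). At an unadjusted p under 0.05 limma gave 3 of the 14, against 27% of all 4560 regions. The median log2 difference of the 14 was 0.07, with a range of -0.47 to 0.38. The lowest value was that of *Srf*, at -0.47 (limma, adjusted p = 0.0726), and the highest that of *Map2k7*, a kinase that activates JNK, at 0.38 (limma, adjusted p = 0.0533). Both were named after their values were seen, as the ends of this range. *Srf* was called lower without Brg1 fl/+ replicate 2 (-0.62, limma, adjusted p = 0.0291) and without Brg1 fl/fl replicate 4 (-0.60, limma, adjusted p = 0.0358). *Map2k7* was called higher without Brg1 fl/fl replicate 2 (0.46, limma, adjusted p = 0.0329) and over peaks with a −log10 q of at least 5 (0.38, limma, adjusted p = 0.0495). Division by the background called both genes lower, as it did 91% of all regions. With these included, only 3 of 20 alternative settings called *Srf* and 3 of 21 called *Map2k7*.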

How the data were processed

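ATAC-seq peak lists of 8 libraries were analysed. Alignment to mm10 (Bowtie2) and peak calling in each library (MACS2) were done by the authors (versions not given in the sources used here). The deposited fold is the ratio of summit height to local background with a pseudocount added to both, so it is smaller than the plain ratio at faint regions. MACS2 as run by the authors derived the −log10 values of p and of q from the same heights and backgrounds. From fold and −log10 p, the height in fragments was solved for at least 99.77% of the peaks of each list, within a tolerance of 0.002. The depth behind each value is this height. Read coverage, which the authors compared with DESeq2, and the RNA-seq libraries of the series were not analysed here.

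Peaks were merged into 16512 regions and placed on GENCODE M21 (GRCm38) genes. Regions solved in all 8 libraries were compared on centred log2 height with limma 3.58.1 in R 4.3.3, with Benjamini-Hochberg adjustment over 4560 regions, and single regions also by two-sided exact permutation tests over the 70 assignments of libraries. The fit was tried on simulated heights with counting noise alone, where 200 regions were changed by 1 on the log2 scale. It called 92.5% of these, with 7 false calls. Smaller changes, such as that of *Jund*, were not simulated. The recovery of heights was tried on values made with the same formula, so that trial checked the solving alone. Python 3.11.15, samtools 1.23.1, pysam 0.24.0, pandas 2.3.3, numpy 2.4.6, matplotlib 3.10.9 and scipy 1.17.1 were used.

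The rule for named genes took all members with their promoter regions, the other region of each member with the lowest p, and up to 4 called genes of each compared list, and the remaining regions of the members were described as well. Members, lists and tests were chosen with earlier results of these data known. The TGACATCA motif, the sequences shown and the averaging of the Brg1 fl/+ pairs were chosen after seeing the data. Alternatives covered thresholds of q, list length, definition of promoters, scaling, averaging of pairs, the replicate number and leaving out each library.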

Additional observations from a re-analysis of the deposited data

Results flagged for a closer look

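In groups of 4 libraries, a single library was checked for standing apart by Dixon's test, over 27 groups of values of the family, of which chance alone flags about 1 in 20. Brg1 fl/+ replicate 1 stood apart at the region upstream of the distal start of *Atf3* (chr1:191224153-191225055), with a centred log2 height of -0.20 where the other Brg1 fl/+ libraries were at -0.74, -0.72 and -0.71. The gap was 0.951 of the range of the group. Its cause was not tested. Without this library the log2 difference between genotypes at this region was -0.29 (limma, adjusted p = 0.442), against -0.42 with it. Without Brg1 fl/fl replicate 2 it was -0.28 (limma, adjusted p = 0.402).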

How the results depend on the processing

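The *Batf* promoter region was on 4 Brg1 fl/+ lists, on 3 where peaks had to cover 50% of a region, on 2 at a −log10 q of at least 10, on 1 with 6250 peaks per list, and on 3 to 4 without 1 library, and on 0 Brg1 fl/fl lists throughout. The single promoter region called higher (*Jund*) became 0 with libraries averaged in pairs (2 against 2, limma, adjusted p = 0.0808, or 2 against 4), on the deposited fold, under quantile normalization and after division by the background, and ranged from 0 to 1 without 1 library. Its log2 difference then ranged from 0.30 to 0.43. Division by the background gave 4 promoter and 4 other regions called lower, as it did 4151 of all 4560 regions (91%), and turned the differences of *Jund* to -0.51, of the region at *Rnaseh2a* to -0.81, of *Atf5* to -0.17 and of *Map2k7* to -0.49. Other regions called higher went from 0 to 1 where 3 libraries per genotype sufficed, and ranged from 0 to 1 without 1 library (1 without Brg1 fl/+ replicate 3, the region at *Gm26802*). Within 25 kb, 1 further *Fos* region (chr12:85455018) was lower, at -0.455 (limma, adjusted p = 0.0307). Brg1 fl/fl lists held 2 fewer promoter regions (a difference of -2.5 to -1.5 without 1 library) and 3 fewer other regions (-4.25 to -1.92), but 0.25 more other regions with equal list lengths, a setting that drops the faintest peaks of long lists. The cause of the other changes was not tested.

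Same-numbered libraries of the 2 genotypes did not deviate together (correlations of -0.061 to -0.008). These correlations cannot decide whether such libraries share more than a number, since deviations within a genotype were close to counting noise. The dispersion of pairs within a genotype lay between 0.769 and 1.23, where noise alone gives 1. With a replicate block, called promoter regions stayed at 1 higher and 0 lower and other regions at 0, and *Jund* kept its difference of 0.36 (limma, adjusted p = 0.0390). Regions under about 10 fragments could not be followed between lists.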
